A study of Mus musculus with 22 samples.

Results

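The MHC class II presentation genes Cd74, H2-Aa, H2-Ab1, H2-DMb2 and Ctss, together with Ciita, were followed across mouse livers that had or lacked SOCS1. The 6 genes were taken by symbol from the platform's probe-to-gene annotation, among probe sets with 1 gene symbol, out of 8251 genes measured in this way. Each of the 6 had a single such probe set. Liver RNA was hybridised to 22 Affymetrix arrays, and all values are log2 expression, on which a difference of 1 is a factor of 2. The livers with the added deletion came from SOCS1-/-IFNg-/- mice, which lack SOCS1, an inhibitor of cytokine signalling, and also lack interferon-gamma (IFNg). Their counterparts came from IFNg-/- mice, so no animal on either side could make its own IFNg. In each genotype, 8 livers were taken at 0.5, 1, 2, 4, 12, 16, 24 and 48 h after intraperitoneal injection of 4 µg of recombinant IFNg in 100 µl. The 3 controls of each genotype were 1 untreated liver and 1 liver each from 4 and 12 h after an injection of 100 µl phosphate-buffered saline (PBS). There was 1 array per genotype and condition and no replicate, so the 2 arrays of a condition form a pair that differs in genotype. The labels give no age, sex or strain.

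MHC class II molecules are pairs of alpha and beta chains that present peptides from endosomes to CD4 T cells, mainly on B cells, dendritic cells and macrophages. The invariant chain fills the groove of new class II molecules until cathepsin S trims it, and H2-DM then helps peptides exchange. The transactivator CIITA, which does not bind DNA itself, is recruited to the X and Y boxes of class II promoters, and IFNg is a classical inducer of it. SOCS1 is itself induced by IFNg and restrains the signal from the IFNg receptor.

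The targeted genes were examined first. Socs1 lay between 6.57 and 7.02 on the 11 SOCS1-/-IFNg-/- arrays and between 6.68 and 9.21 on the 11 IFNg-/- arrays, with the peak at 2 h after IFNg. Outside the 1 and 2 h arrays the genotypes differed in Socs1 by no more than 0.32, and the labels do not say whether its probe set lies in the deleted part. Ifng lay between 2.19 and 2.61 on SOCS1-/-IFNg-/- arrays and between 2.18 and 2.52 on IFNg-/- arrays. The hepatocyte gene Alb lay between 13.1 and 13.4 on all arrays, and array medians lay between 5.64 and 5.71.

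Cd74, H2-Aa and H2-Ab1 were higher in SOCS1-/-IFNg-/- livers than in IFNg-/- livers in all 11 pairs, injected or not. Averaged over the pairs of controls, of early times (0.5 to 4 h) and of late times (12 to 48 h), the differences were 0.91 ± 0.08 for Cd74, 0.64 ± 0.08 for H2-Aa and 0.36 ± 0.05 for H2-Ab1 (SE, n = 11 pairs). Ciita differed by 0.07 ± 0.04, with a 95% interval from -0.02 to 0.16. After IFNg, Cd74 and Ctss rose above the controls, by 1.26 ± 0.18 and 0.64 ± 0.12 at 12 h with both genotypes together (SE). Against PBS of the same hour the values were 0.63 ± 0.22 and 0.31 ± 0.15, and neither passed (SE, adjusted p = 0.495 and 0.713). Ciita passed no test at any time.

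Cd74 encodes the invariant chain, which chaperones class II molecules to the endosome. In control livers it read 7.81 untreated, 7.66 at PBS 4 h and 8.73 at PBS 12 h in SOCS1-/-IFNg-/- mice, against 7.01, 7.02 and 7.91 in IFNg-/- mice. Early after IFNg, at 0.5, 1, 2 and 4 h, it read 7.74, 8.12, 8.18 and 8.70 in SOCS1-/-IFNg-/- livers, against 6.91, 6.62, 6.85 and 7.51 in IFNg-/- livers. Late, at 12, 16, 24 and 48 h, it read 9.08, 8.71, 9.31 and 8.59 in SOCS1-/-IFNg-/- livers, against 8.83, 8.02, 8.01 and 7.74 in IFNg-/- livers. In the early phase the genotypes did not overlap, while in the control and late phases the lowest SOCS1-/-IFNg-/- array lay below the highest IFNg-/- array. The share of all genes without overlap in the early phase was not counted. Within a pair the SOCS1-/-IFNg-/- array was always the higher, by 0.25 at the least, at 12 h, and by 1.49 at the most, at 1 h. The PBS 12 h array was the highest control in both genotypes.

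**Figure D1:**
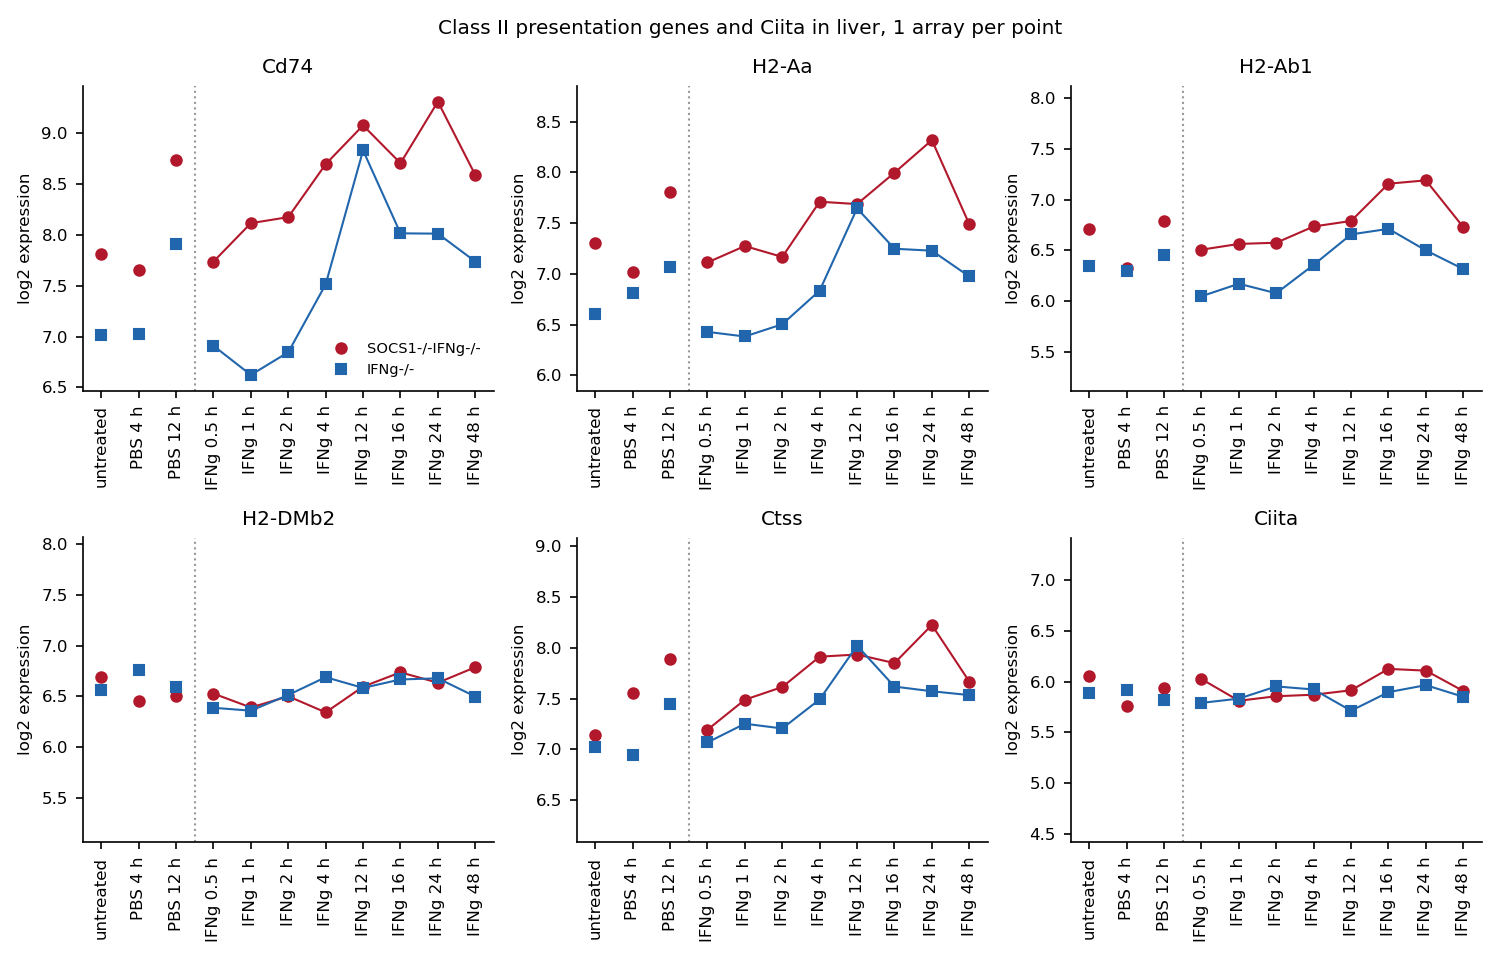
Log2 expression of the 6 genes on each of the 22 arrays, with the control conditions left of the dotted line and hours after IFNg to its right; red circles are SOCS1-/-IFNg-/- and blue squares IFNg-/- livers, and all panels span the same height. Cd74, H2-Aa and H2-Ab1 lie higher in SOCS1-/-IFNg-/- livers in all 11 pairs, while Ciita stays between 5.71 and 6.12.

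H2-Aa encodes the alpha chain of the class II molecule I-A. Its window from 250 bases before to 50 bases after the RefSeq start (GRCm38.p6, chr17:34287774-34288073, minus strand) is shown because the gene passed the test of the genotype difference. Capitals mark a Y box, read as ATTGG on this strand 48 to 44 bases before the start, and the letters TGACGTCA 74 to 67 bases before it, the palindrome of the cyclic AMP response element.
H2-Aa promoter: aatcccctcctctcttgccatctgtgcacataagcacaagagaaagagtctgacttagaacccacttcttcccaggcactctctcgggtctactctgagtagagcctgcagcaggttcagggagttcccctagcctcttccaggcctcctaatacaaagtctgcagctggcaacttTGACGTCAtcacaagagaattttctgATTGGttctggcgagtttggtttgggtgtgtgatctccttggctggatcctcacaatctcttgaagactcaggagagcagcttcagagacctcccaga
The window for Ctss (GRCm38.p6, chr3:95526536-95526835, plus strand), which passed the test of the response at 12 h, holds in capitals a match to the interferon-stimulated response element (GAAA, any 2 bases, GAAA), 21 to 12 bases before the start.
Ctss promoter: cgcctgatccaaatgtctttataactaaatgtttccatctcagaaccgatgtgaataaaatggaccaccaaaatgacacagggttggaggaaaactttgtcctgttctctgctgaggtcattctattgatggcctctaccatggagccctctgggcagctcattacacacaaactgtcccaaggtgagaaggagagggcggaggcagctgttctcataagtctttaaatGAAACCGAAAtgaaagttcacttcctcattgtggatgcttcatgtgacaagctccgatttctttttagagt
The window for H2-DMb2 (GRCm38.p6, chr17:34144999-34145298, plus strand), the class II gene among the 6 that passed neither test, lies inside the gene's annotated span and holds a Y box 90 to 86 bases before the start and a match to the interferon-gamma activated site, TTCNNNGAA, 218 to 210 bases before it.
H2-DMb2 promoter: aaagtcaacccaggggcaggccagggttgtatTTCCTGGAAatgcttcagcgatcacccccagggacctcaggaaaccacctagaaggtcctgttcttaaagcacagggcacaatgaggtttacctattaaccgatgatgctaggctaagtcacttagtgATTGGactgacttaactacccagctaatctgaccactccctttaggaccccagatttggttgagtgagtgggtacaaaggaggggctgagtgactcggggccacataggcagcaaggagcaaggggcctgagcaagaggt
H2-Eb1, the beta chain of the class II molecule I-E (GRCm38.p6, chr17:34305617-34305916, plus strand), is added because its window matches the letters searched for both boxes. The X box core lies 94 to 82 bases and the Y boxes lie 59 to 55 and 35 to 31 bases before the start.
H2-Eb1 promoter: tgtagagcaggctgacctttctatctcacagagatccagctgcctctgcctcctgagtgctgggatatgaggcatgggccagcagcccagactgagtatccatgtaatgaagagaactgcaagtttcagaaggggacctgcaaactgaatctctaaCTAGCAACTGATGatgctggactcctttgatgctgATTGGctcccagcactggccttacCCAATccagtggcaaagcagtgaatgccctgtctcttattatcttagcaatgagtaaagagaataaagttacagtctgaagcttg
Windows were available for 3 of the 6 genes.

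Both strands of each window were searched for the Y box (CCAAT, or ATTGG on the other strand), the X box core (CTAG, any 2 bases, AC, any 3 bases, TG), the interferon-gamma activated site, the interferon-stimulated response element and TGACGTCA, the last added after the H2-Aa sequence had been seen. Of 32851 mouse windows, 37.4% held a Y box, 0.566% the X box core, 8.3% the activated site, 3.44% the interferon-stimulated response element and 1.79% TGACGTCA. Among 9 windows of class II genes, 8 held a Y box and 3 the X box core, those of H2-Eb1, H2-DMb1 and H2-Ob. Of these, H2-Ob had a genotype difference of 0.03, H2-DMb1 one of 0.23 and H2-Eb1 one of 0.26, and none passed the genotype test. A match describes letters in the window and was not tested as a site. Only these exact letters were searched, so a window without a match can still hold a variant of a box.

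H2-Aa read 7.31 untreated, 7.02 at PBS 4 h and 7.81 at PBS 12 h in SOCS1-/-IFNg-/- livers, against 6.60, 6.81 and 7.07 in IFNg-/- livers. At 0.5, 1, 2 and 4 h after IFNg it read 7.11, 7.27, 7.17 and 7.71 in SOCS1-/-IFNg-/- livers, against 6.43, 6.38, 6.50 and 6.84 in IFNg-/- livers. At 12, 16, 24 and 48 h it read 7.69, 8.00, 8.32 and 7.49 in SOCS1-/-IFNg-/- livers, against 7.65, 7.25, 7.23 and 6.97 in IFNg-/- livers. The early arrays did not overlap between genotypes, which also held for Cd74 and H2-Ab1, and the share of all genes so placed was not counted. The pair at 12 h was nearly equal, with a difference of 0.04. The largest pair difference, 1.09, was at 24 h, where the SOCS1-/-IFNg-/- liver reached its maximum and the IFNg-/- liver lay below its own 12 h value.

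H2-Ab1 encodes the beta chain that pairs with H2-Aa in I-A. It ranged from 6.33 to 7.19 with a median of 6.73 on SOCS1-/-IFNg-/- arrays, against 6.05 to 6.71 with a median of 6.34 on IFNg-/- arrays. Its pair differences ran from 0.03 at PBS 4 h to 0.69 at 24 h, and all 11 were above 0. The order of the genotypes was therefore the same for both chains of I-A and for the invariant chain in every condition. Whether this reflects more cells that carry class II or more RNA per cell cannot be told apart in whole liver.

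H2-DMb2 encodes a beta chain of H2-DM, the peptide exchange factor. It ranged from 6.34 to 6.79 with a median of 6.53 on SOCS1-/-IFNg-/- arrays, against 6.36 to 6.76 with a median of 6.58 on IFNg-/- arrays. The genotypes overlapped over almost the whole range, and the SOCS1-/-IFNg-/- array was the higher in 6 of 11 pairs. H2-DMb1 and H2-DMb2 are close copies, and cross-hybridisation between them was not tested. H2-DMb1 was higher in SOCS1-/-IFNg-/- livers in 11 of 11 pairs, with a difference of 0.23 ± 0.05 that did not pass the test (SE, adjusted p = 0.0934).

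Ctss encodes cathepsin S, the protease that trims the invariant chain. In controls it read 7.14 untreated, 7.56 at PBS 4 h and 7.89 at PBS 12 h in SOCS1-/-IFNg-/- livers, against 7.02, 6.95 and 7.45 in IFNg-/- livers. At 0.5, 1, 2 and 4 h it read 7.19, 7.49, 7.61 and 7.91 in SOCS1-/-IFNg-/- livers, against 7.07, 7.25, 7.20 and 7.49 in IFNg-/- livers. At 12, 16, 24 and 48 h it read 7.93, 7.85, 8.22 and 7.67 in SOCS1-/-IFNg-/- livers, against 8.02, 7.62, 7.57 and 7.53 in IFNg-/- livers. The ranges overlapped in every phase, and 10 of 11 pairs were higher in SOCS1-/-IFNg-/- livers, the exception being 12 h.

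Ciita encodes the class II transactivator. In controls it read 6.05, 5.76 and 5.93 in SOCS1-/-IFNg-/- livers, against 5.89, 5.92 and 5.82 in IFNg-/- livers, in the order untreated, PBS 4 h and PBS 12 h. At 0.5, 1, 2 and 4 h it read 6.02, 5.81, 5.86 and 5.87 in SOCS1-/-IFNg-/- livers, against 5.79, 5.83, 5.95 and 5.92 in IFNg-/- livers. At 12, 16, 24 and 48 h it read 5.91, 6.12, 6.11 and 5.91 in SOCS1-/-IFNg-/- livers, against 5.71, 5.90, 5.96 and 5.85 in IFNg-/- livers. The genotypes overlapped in every phase, and 7 of 11 pairs were higher in SOCS1-/-IFNg-/- livers. Its SD over the 22 arrays was 0.11, larger than that of 36.0% of genes, against 0.77 and 99.2% for Cd74. The files give no detection call, so how far the probe set stood above background in whole liver is not known.

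The genotype difference was tested with limma on the 11 within-pair differences, with Benjamini-Hochberg adjustment over all 8251 genes and a threshold of 0.05. Of the 6 genes, 3 passed, all higher in SOCS1-/-IFNg-/- livers, beside 0.218% of all genes in either direction. Cd74 had an adjusted p of 0.000381, H2-Aa one of 0.00354 and H2-Ab1 one of 0.00754. Ctss, with a difference of 0.31 ± 0.06, did not pass (SE, adjusted p = 0.0744), nor did H2-DMb2 at -0.02 ± 0.05 (SE, adjusted p = 0.983) or Ciita (adjusted p = 0.752). Higher in SOCS1-/-IFNg-/- livers in all 11 pairs were 3 of the 6 genes, beside 0.291% of all genes, and none was lower in all pairs, beside 0.145% of all genes. In a fit that ignored the pairing, H2-Aa alone of the 3 passed, with Cd74 at an adjusted p of 0.0523 and H2-Ab1 at 0.0653. The planned trend and robust prior, as first run with limma's default trend over each gene's mean pair difference, gave 0 calls among the 6 (adjusted p = 0.793 for these 3, each with an unadjusted p under 0.05). Run again with the trend over mean expression, a change made after that result was seen, it kept all 3. Leaving out each pair in turn kept all 3 calls in 11 of 11 fits.

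**Figure D2:**
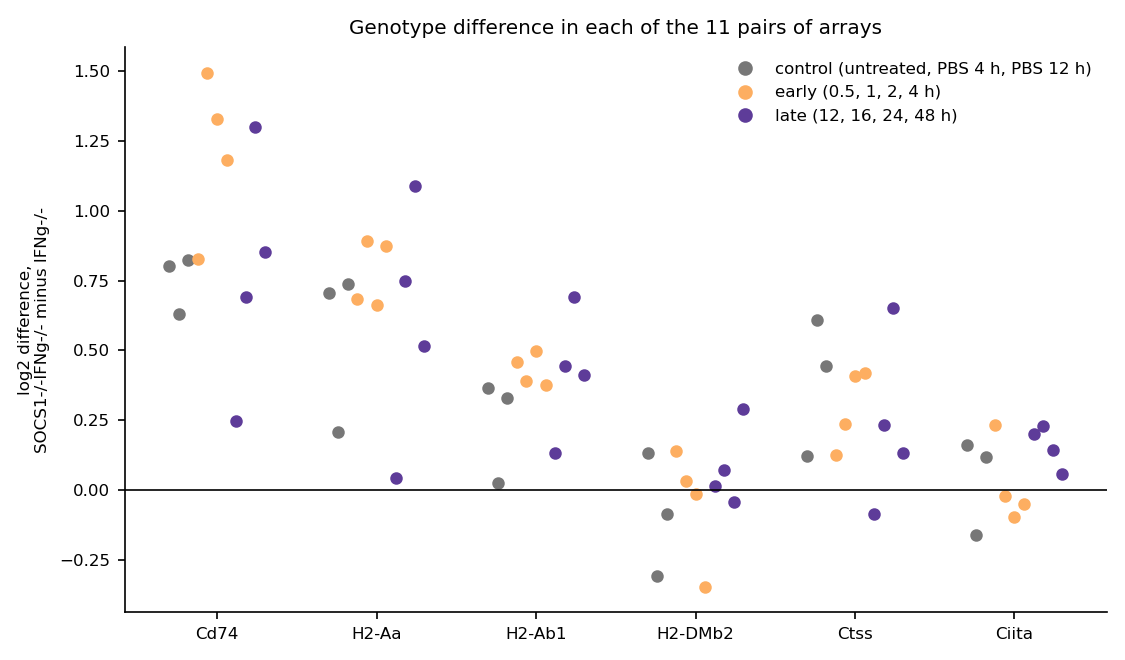
Log2 difference, SOCS1-/-IFNg-/- minus IFNg-/-, of each gene in each of the 11 pairs of arrays; grey, orange and purple points are control, early and late pairs, in time order from left to right within a gene. All points of Cd74, H2-Aa and H2-Ab1 lie above 0, and those of H2-DMb2 and Ciita lie on both sides of it.

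In the 3 control pairs, with no IFNg injected, Cd74, H2-Aa, H2-Ab1 and Ctss each read higher on the SOCS1-/-IFNg-/- array in 3 of 3 pairs. The share of all genes so placed was not counted, so this is a description only. The mean differences of these 3 pairs were 0.75 ± 0.16 for Cd74, 0.55 ± 0.15 for H2-Aa, 0.24 ± 0.09 for H2-Ab1, 0.39 ± 0.12 for Ctss, -0.09 ± 0.10 for H2-DMb2 and 0.04 ± 0.08 for Ciita (SE). Each SE is limma's, from the spread of all 11 pairs around their phase means, and not from the 3 control pairs alone. None of the 6 passed limma's test in controls, where 0.0121% of all genes did. An unadjusted p under 0.05 was reached by 4 of the 6, and by 373 of all genes. Cd74 had an adjusted p of 0.319 and H2-Aa one of 0.791. With pairs weighted by how closely each followed its phase mean over all genes, Cd74 and H2-Aa passed limma's test in controls. They stood at 0.79 and 0.65 in that fit, with adjusted p of 0.0149 and 0.0410.

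The change of the genotype difference under IFNg is the test of whether it was steady. Early after IFNg the Cd74 difference minus that in controls was 0.46 ± 0.21 (SE, 95% interval 0.01 to 0.90, adjusted p = 0.998), and late it was 0.02 ± 0.21 (SE, 95% interval -0.42 to 0.46, adjusted p = 0.979). For H2-Aa the changes were 0.23 ± 0.20 early and 0.05 ± 0.20 late, and for H2-Ab1 0.19 ± 0.12 early and 0.18 ± 0.12 late (SE). None of the 6 genes passed in limma's test of the early change, with 1 at an unadjusted p under 0.05, beside 0% of all genes passing and 287 genes under that unadjusted p. None passed for the late change either, with 0 of the 6 under an unadjusted p of 0.05, beside 0% and 938 of all genes. The intervals leave room for changes of up to 0.90 early and 0.46 late in Cd74, so the data do not show the difference to be constant.

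The response to IFNg was tested as each time against the mean of the untreated, PBS 4 h and PBS 12 h conditions, with both genotypes together. Relative to controls Cd74 stood at -0.37, -0.32, -0.18 and 0.41 at 0.5, 1, 2 and 4 h, and at 1.26, 0.67, 0.97 and 0.47 at 12, 16, 24 and 48 h (SE 0.18 at each time). The early values rest on the PBS 12 h pair: without it they were -0.05, -0.01, 0.13 and 0.73, none of which passed. Of these times Cd74 passed at 12 h (adjusted p = 0.00169) and at 24 h (adjusted p = 0.0471). Ctss passed at 12 h alone, at 0.64 ± 0.12 (SE, adjusted p = 0.0112). H2-Aa stood at 0.56, 0.52 and 0.67 at 12, 16 and 24 h (SE 0.15 at each) and H2-Ab1 at 0.24, 0.45 and 0.36 (SE 0.10 at each), without passing. Ciita ranged from -0.08 at 12 h to 0.14 at 24 h (SE 0.08 at each time), and H2-DMb2 from -0.22 at 1 h to 0.11 at 16 h (SE 0.10 at each).

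By count, 0 of the 6 genes passed at 0.5 h beside 0% of all genes, 0 at 1 h beside 0.158%, 0 at 2 h beside 1.66% and 0 at 4 h beside 5.03%. At 12 h 2 of the 6 passed beside 1.42% of all genes, at 16 h 0 beside 0.448%, at 24 h 1 beside 0.17% and at 48 h 0 beside 0.0121%. At 0.5, 1, 2, 4, 16 and 48 h, 478, 370, 915, 1473, 697 and 552 of all 8251 genes had an unadjusted p under 0.05 in limma. Of the 6 genes, 2, 1, 0, 2, 4 and 2 did so at these times. Those at 0.5 h (H2-Aa at -0.33, H2-Ab1 at -0.21) and 1 h (H2-DMb2 at -0.22) lay below the controls, and the later ones above. Without the PBS 12 h pair H2-Aa stood at -0.16 and H2-Ab1 at -0.14 at 0.5 h. The Cd74 call at 24 h is the less secure of its calls: 5 of 10 fits with 1 condition removed lost it, those without untreated, PBS 4 h, IFNg 0.5 h, IFNg 2 h or IFNg 48 h, with an adjusted p of up to 0.217. The Ctss call at 12 h was lost without the untreated pair (adjusted p = 0.0983), while Cd74 at 12 h held in 10 of 10 such fits.

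**Figure D3:**
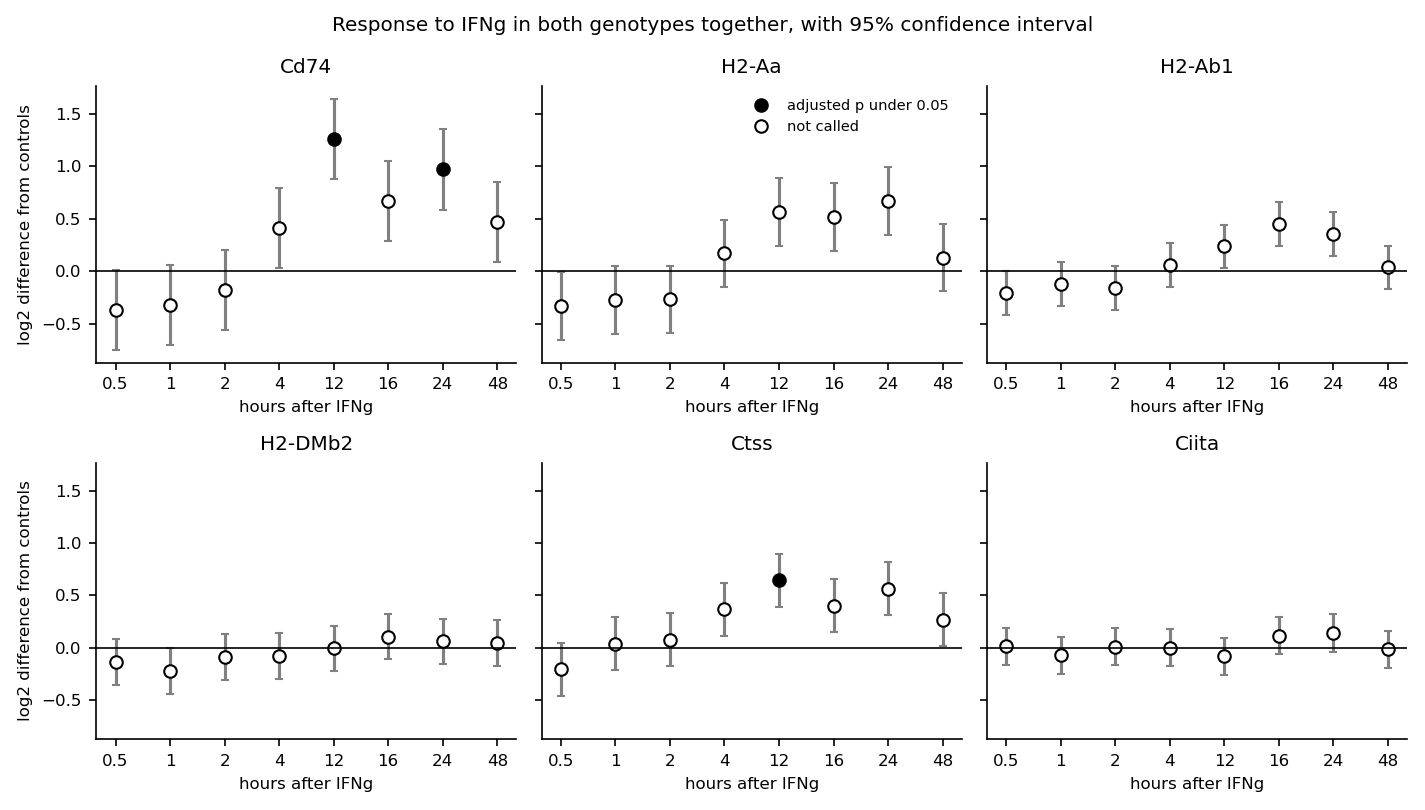
Log2 difference of each IFNg time from the mean of the control conditions, both genotypes together, with 95% confidence intervals; filled points have an adjusted p under 0.05. Filled points are Cd74 at 12 and 24 h and Ctss at 12 h, and every interval of Ciita spans 0.

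The PBS 12 h livers enter every control mean. Against the mean of untreated and PBS 4 h, PBS 12 h stood at 0.94 ± 0.19 for Cd74 (SE, adjusted p = 0.110), 0.51 ± 0.13 for Ctss and 0.50 ± 0.16 for H2-Aa (SE). None of the 6 passed this limma test, beside 0.0606% of all genes, and 3 had an unadjusted p under 0.05, as had 578 of all genes. PBS as a whole against untreated gave 0.42 for Cd74, 0.38 for Ctss and -0.11 for Ciita. In limma 0 of the 6 passed beside 0.0242% of all genes. An unadjusted p under 0.05 was reached by 2 of the 6 and by 966 of all genes. Leaving out 1 PBS condition gave values between -0.07 and 0.91 for Cd74 and between 0.17 and 0.59 for Ctss. Without the PBS 12 h pair the 12 h response of Cd74 was 1.58 and that of Ctss 0.81, and Ctss passed at 4 h too, at 0.54 (adjusted p = 0.0359).

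Against PBS of the same time the response at 4 h was 0.77 ± 0.22 for Cd74 and 0.45 ± 0.15 for Ctss (SE). At 4 h 0 of the 6 genes passed beside 1.36% of all genes, with 2 under an unadjusted p of 0.05. At 12 h 0 passed beside 0.109%, with 1 under it. Under the same unadjusted p in limma were 1001 of all genes at 4 h and 583 at 12 h. The difference of 48 h from 16 h was -0.20 for Cd74, -0.39 for H2-Aa and -0.41 for H2-Ab1, with 0 of the 6 passing beside 1.15% of all genes. Of the 6, H2-Ab1 alone had an unadjusted p under 0.05 in limma, beside 997 of all genes.

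Within each genotype, late arrays were set against that genotype's controls. The late difference was 0.85 for Cd74, 0.49 for H2-Aa, 0.36 for H2-Ab1 and 0.39 for Ctss in SOCS1-/-IFNg-/- livers, and 0.83, 0.45, 0.18 and 0.55 in IFNg-/- livers. Leaving out 1 array moved the late values in SOCS1-/-IFNg-/- livers from 0.65 to 1.19 for Cd74, from 0.31 to 0.71 for H2-Aa, from 0.22 to 0.45 for H2-Ab1 and from 0.19 to 0.57 for Ctss. The lowest came without the untreated array for Ctss and without the PBS 4 h array for the others. None of the 6 passed limma's test in SOCS1-/-IFNg-/- livers late (0% of all genes, 4 of the 6 under an unadjusted p of 0.05) or in IFNg-/- livers late (0% of all genes, 3 of the 6 under it). The genes under it in the whole series numbered 775 and 370. None passed early in SOCS1-/-IFNg-/- livers (0.0121% of all genes) or in IFNg-/- livers (0% of all genes), with 0 of the 6 under an unadjusted p of 0.05 in both. Above the mean of its own untreated and PBS 4 h arrays, Cd74 stood 1.34 higher at 12 h and 1.58 at 24 h in the SOCS1-/-IFNg-/- livers, against 1.81 at 12 h and 0.99 at 24 h in the IFNg-/- livers. The highest array thus came at 24 h in SOCS1-/-IFNg-/- livers and at 12 h in IFNg-/- livers, on 1 array each and with no test.

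Split by source, genotype accounted for 38.2% of the variance of Cd74 over the 22 arrays, 42.0% for H2-Aa and 40.7% for H2-Ab1. The same share was 19.2% for Ctss, 12.9% for Ciita and 0.189% for H2-DMb2, with a median of 2.16% over all genes. Condition accounted for 56.4% in Cd74, 70.8% in Ctss and 46.4% in Ciita, with a median of 54.9%. The shares are plain sums of squares. With 11 conditions, this share is large even for random spread, and that of Ciita lay below the median. The remainder was 5.42% in Cd74 and 40.7% in Ciita, with a median of 40.4%, so the share left to neither factor was small in Cd74 and ordinary in Ciita.

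Across the 22 arrays, which share genotype and treatment, the genes whose pattern was most like the mean of Cd74, H2-Aa and H2-Ab1 were Ctss (r = 0.881), Cd52 (0.880), Tmem176a (0.844), Ly6e (0.829) and Ifitm3 (0.798), among 476 genes with an SD of at least 0.3. Ciita had an r of 0.372 and H2-DMb2 one of 0.288 with the same mean. With SDs of 0.11 and 0.13 both lay below the cut-off of 0.3. A small spread can itself lower r, so their values, here and for Ctss, are not directly comparable with the others. Most like Ctss were Cd74 (0.908), C1qb (0.891), Ifitm3 (0.879), Cd52 (0.872) and Tmem176a (0.867), and Ciita had an r of 0.103 with it. Of the genes so named outside the 6, Ly6e, an interferon-induced surface protein, passed the genotype test, at 0.30 ± 0.04 (SE, adjusted p = 0.00882). Cd52, Tmem176a, Ifitm3 and C1qb did not pass, and the share over all genes was 0.218%. Ly6e was picked for likeness, on these same arrays, to 3 genes that passed this test. Its genotype difference is therefore partly built in and is no separate support.

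Among 11 measured class II molecules and accessory chains, 3 passed the genotype test, all higher, beside 0.218% of all genes, with a median difference of 0.17 against -0.0045 over all genes. Beyond the 6 genes, H2-Eb1 stood at 0.26 ± 0.05 (SE, adjusted p = 0.0662), H2-DMa, the alpha chain of H2-DM, at 0.17, H2-Ea at 0.11, H2-Oa and H2-Ob, the chains of the H2-DM inhibitor H2-O, at 0.03 each, and H2-Eb2 at -0.04. Among 10 measured genes of class II transcription, 0 passed in limma and 1 had an unadjusted p under 0.05, with a median of 0.02. That unadjusted p was reached by 710 of all genes. Irf1, an interferon-induced transcription factor that acts on the Ciita promoter, stood at 0.51 ± 0.21 (SE, adjusted p = 0.531). Its 4 h pair differed by 3.01, and the mean pair difference was 0.52 with that pair and 0.27 without it. Rfxank, a subunit of the X box factor RFX, stood at -0.0040. Among 15 endosomal processing genes 1 passed, Ctse, the aspartic protease cathepsin E, which was lower in SOCS1-/-IFNg-/- livers at -1.12 ± 0.11 overall (SE, adjusted p = 0.000416) and -1.63 ± 0.20 in controls (SE, adjusted p = 0.0182). Of 13 class I genes 0 passed in limma, with 6 under an unadjusted p of 0.05 and a median of 0.12, and of 5 co-stimulation genes 0 passed, with 2 under it.

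**Figure D4:**
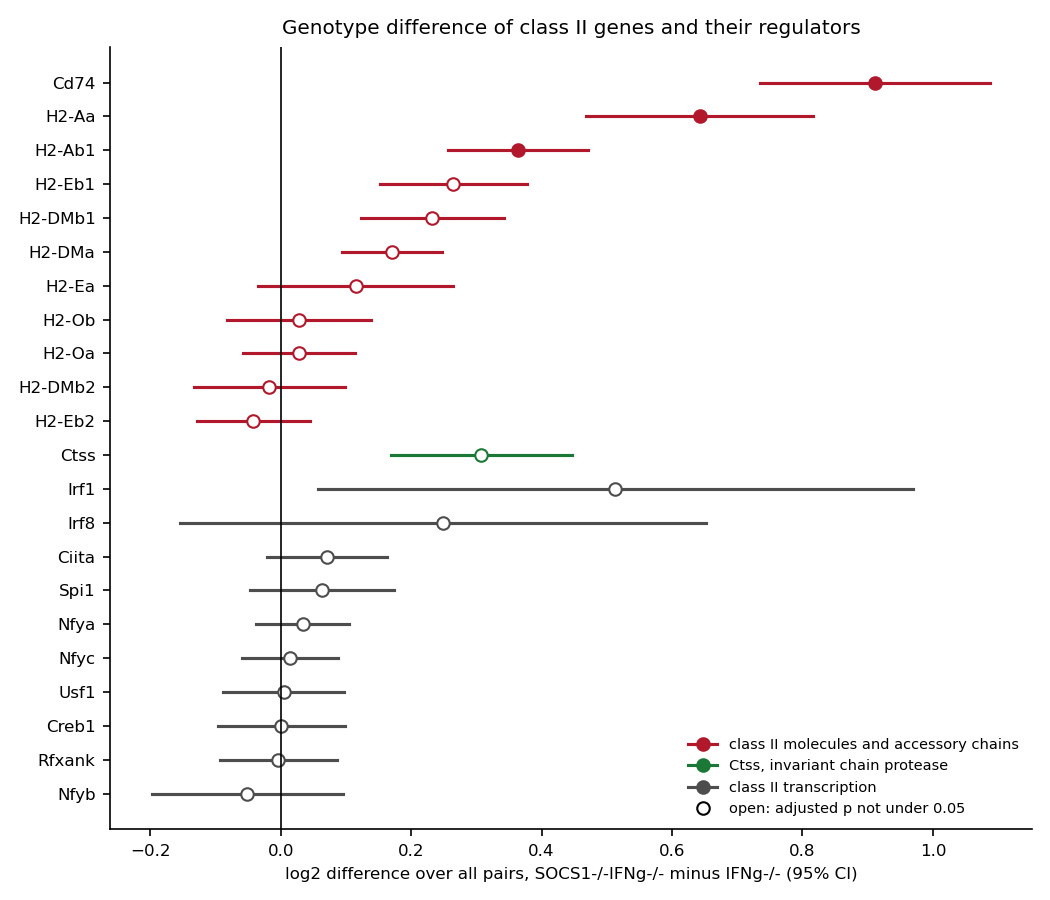
Log2 genotype difference over all pairs, SOCS1-/-IFNg-/- minus IFNg-/-, with 95% confidence intervals, for class II molecules (red), Ctss (green) and class II transcription genes (grey); filled points have an adjusted p under 0.05. Cd74, H2-Aa and H2-Ab1 are filled, and Ciita lies at 0.07.

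The class I pathway presents peptides from the cytosol. At 12 h after IFNg, where 1.42% of all genes passed, 9 of 13 class I genes rose, among them the immunoproteasome subunits Psmb8 (1.83), Psmb9 (1.59) and Psmb10 (1.28) and the peptide transporter Tap1 (1.11). At the same time 2 of 11 class II genes rose, Cd74 and H2-DMa (0.44), while a further H2-DMa probe set of lower mean gave 0.13 and did not pass, and H2-Eb2 stood at -0.23 without passing. Against PBS 12 h, where 0.109% of all genes passed, 1 of 13 class I genes passed, Pdia3 at 0.88, and 0 of 11 class II genes did in limma. An unadjusted p under 0.05 was reached by 9 and 1 of them, and by 583 of all genes. Psmb8 was itself higher at PBS 12 h than in the other controls, by 1.49 ± 0.22 (SE, adjusted p = 0.0211). The difference between the 2 groups of genes was not tested. At 4 h, where 5.03% of all genes passed, 4 of 13 class I genes rose, while 0 of 11 class II genes passed in limma. An unadjusted p under 0.05 was reached by 2 of the 11, and by 1473 of all genes. At that time, of the class II transcription genes Irf1 rose by 2.17 and Irf8, an interferon-induced factor of myeloid cells, by 1.73. Against PBS 4 h, where 1.36% of all genes passed, 0 of 10 class II transcription genes passed in limma. An unadjusted p under 0.05 was reached by 2 of the 10, and by 1001 of all genes. The Irf1 pair at 4 h differed by 3.01, higher in the SOCS1-/-IFNg-/- liver, so its rise is not one shared equally by both genotypes. The Irf8 pair differences over all conditions ran from -0.47 to 2.24, so an equal rise is not shown for Irf8 either. At 12 h 0 of 10 class II transcription genes passed in limma, with 0 under an unadjusted p of 0.05.

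**Figure D5:**
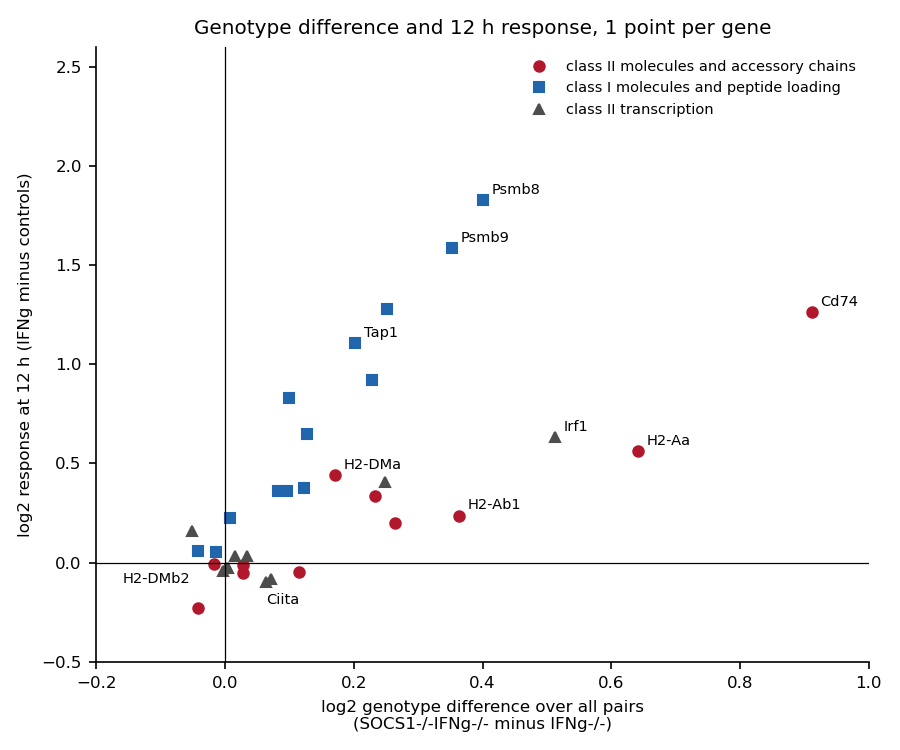
Each point is 1 gene, with its log2 genotype difference over all pairs (SOCS1-/-IFNg-/- minus IFNg-/-) across and its log2 response at 12 h after IFNg up. Class I genes (squares) reach responses of 1.83 with genotype differences below 0.5, Cd74 is far out on both axes, and Ciita and H2-DMb2 lie near 0 on both.

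Markers of cells that carry class II were compared over the same pairs. The mean of 12 measured B cell markers lay between 4.83 and 5.07 on SOCS1-/-IFNg-/- arrays and between 4.91 and 5.05 on IFNg-/- arrays, and that of 9 dendritic cell markers between 5.91 and 6.12 and between 5.95 and 6.08 on the same sets. The mean of 11 Kupffer cell and macrophage markers lay between 6.85 and 7.35 on SOCS1-/-IFNg-/- arrays and between 6.80 and 7.18 on IFNg-/- arrays. The mean of 8 monocyte markers lay between 5.46 and 5.89 on SOCS1-/-IFNg-/- arrays and between 5.42 and 5.76 on IFNg-/- arrays. It was higher in SOCS1-/-IFNg-/- livers in 10 of 11 pairs, by 0.11 on average, with a mean difference above 0 in 5 of the 8 genes. Plac8, at 0.70 in the genotype test, is 1 of the 8, and the mean without it was not computed. Such pairs numbered 9 for sinusoidal endothelium and 7 each for Kupffer cells and macrophages, T and NK cells, cholangiocytes and stellate cells. They numbered 6 for dendritic cells, 5 for B cells and 3 for hepatocytes. In the genotype test, passed by 0.218% of all genes, 1 of the 8 monocyte markers passed, Plac8, at 0.70 ± 0.10 (SE, adjusted p = 0.0137), and 0 of the B cell, dendritic cell and Kupffer cell markers did in limma, with 2, 0 and 4 of them under an unadjusted p of 0.05. No marker of T and NK cells, cholangiocytes, hepatocytes, sinusoidal endothelium or stellate cells passed, with 1, 0, 2, 1 and 1 under an unadjusted p of 0.05. In the same test 710 of all genes were under it. At 12 h after IFNg, beside 1.42% of all genes, 1 of 11 Kupffer cell and macrophage markers rose, Mpeg1, at 1.86, and 1 of 8 monocyte markers, Plac8, at 1.12. The part of these cells in the class II differences was not tested.

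Ciita lies on the same chromosome as the deleted gene, at chr16:10480014-10531064 (GRCm38.p6), 252.7 kb from Socs1 at chr16:10783808-10785536. Of 12 measured genes within 0.5 Mb of Socs1, as of the 15 of a wider list, 1 passed the genotype test beside 0.218% of all genes, Clec16a, 38.9 kb away, at 0.22 ± 0.03 (SE, adjusted p = 0.00944). Whether the chromosome around the deletion differs between the genotypes beyond Socs1 was not tested.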

How the data were processed

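Total liver RNA was labelled and hybridised to 22 Affymetrix arrays, 11 per genotype. The deposited values are log2 expression per probe set, processed by the authors with affy, per the submitters' processing notes; how background, normalization and summary were handled is not given in the sources used here, and the scale follows from their range. They allow no detection call. Of 12488 probe sets, 10833 carried 1 gene symbol in the platform annotation, giving 8251 genes, each by its probe set with the highest mean. Genotype was tested on 11 within-pair differences with 3 phases (8 residual degrees of freedom), responses in an additive fit of condition and genotype (10), and phases within a genotype over 6 groups (16), using lmFit and eBayes of limma 3.58.1 (R 4.3.3) and Benjamini-Hochberg adjustment over all genes. Pairs share treatment and time by label, not an animal. With 1 array per genotype and condition, p-values measure the spread of the additive fit, which takes genotype differences between times as error. The fits were also run on simulated arrays of independent normal noise with shifts added to some genes. The outcome is not reported here, and no call rests on it. The alternatives were other eBayes priors, array weights (pair weights in the genotype fit), all probe sets, quantile normalization, median centring, a filter on low means, left-out arrays and other use of the pairing.

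The 6 genes and the 15 gene lists were chosen with earlier results of these data known. Named are the 6 genes, up to 4 passing genes per list, class II, class II transcription and Socs1 neighbour genes with or without a call, and the 5 most alike genes. Promoter sequences and coordinates are from RefSeq, GRCm38.p6.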

Additional observations from a re-analysis of the deposited data

How the results depend on the processing

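Of 2409 recomputed values of the 6 genes, 0 turned sign with a call in either fit, 17 lost a call and 12 gained one; 85 turned sign with no call in either. The genotype calls of Cd74, H2-Aa and H2-Ab1 numbered 3. Without the pairing 1 remained. The planned trend and robust prior, first run with the software's default trend over each gene's mean pair difference, gave 0 of 6 (adjusted p = 0.793 for all 3); after that result was seen it was run with the trend over mean expression, which kept all 3. Of its parts, added later, the trend over the mean pair difference alone also gave 0 (adjusted p = 0.205 to 0.468, with the SE of Cd74 at 0.33), and robust estimation alone kept all 3 (adjusted p up to 0.00660). With each pair left out in turn the Cd74 difference ran from 0.85 to 0.97, that of H2-Aa from 0.59 to 0.70 and that of H2-Ab1 from 0.33 to 0.40. In controls pair weights gave 2 calls.

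For the responses, leaving out a condition gave 0 to 1 calls at 4 h, 1 to 3 at 12 h, 0 to 1 at 16 h, 0 to 2 at 24 h and 0 to 1 for PBS 12 h against the other controls. H2-Aa passed at 12 h without PBS 12 h (adjusted p = 0.0422). At 16 h the filter on means of at least 6, which removes Ciita, gave 1 call, H2-Ab1. At 24 h the Cd74 call was lost (0 calls) with the trend and robust prior, with median centring and with the filter. Array weights gave 1 call for PBS 12 h. For the other changed calls the cause was not tested. No member had a further single-symbol probe set to try.

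Single arrays per genotype and condition, unknown probe background and unknown upstream processing limit what can be read. A call in the additive fit rests on both genotypes together, a genotype-specific time cannot be tested, and the Ciita values speak for 1 probe set alone.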
